A study of Mus musculus with 6 samples.

Results

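The NRF2 antioxidant response genes were followed in J774 cells, a mouse macrophage line, after knockdown of NCOA4, the cargo receptor that carries ferritin to the lysosome. The genes are Nfe2l2, which encodes the transcription factor NRF2, its inhibitor Keap1, and Nqo1, Gclc, Gclm, Slc7a11, Gsr, Srxn1, Txnrd1 and Prdx1, which NRF2 is known to drive. They were chosen by name, and all 10 were found among the 55487 Ensembl mouse genes of the RNA-seq libraries. One group of cells received control siRNA and the other NCOA4 siRNA, both by liposome-mediated transfection, and 3 biological replicates of each were sequenced from stranded poly(A) libraries. Both groups were grown with fetal bovine serum and antibiotics, in DMEM according to the labels and in AMEM according to the methods of the study, and no other agent or altered allele is named for either. The model is a single cell line with a single NCOA4 siRNA, and the time from transfection to RNA isolation is not given for these libraries in the sources used here.

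NRF2 is made continuously and, at rest, is bound by KEAP1, which hands it to a CUL3 ubiquitin ligase for degradation. Electrophiles and oxidants modify cysteines of KEAP1, so that NRF2 accumulates, pairs with a small MAF protein and binds antioxidant response elements near its target genes. These targets supply glutathione, thioredoxin and NADPH, and in macrophages they are known for buffering oxidants, heme and iron. NRF2 itself is regulated mainly as a protein, which transcript levels do not show.

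The antioxidant response element is usually described by its core TGACNNNGC. This core was looked for on both strands between 250 bases before and 50 bases after each start site in RefSeq promoters (GRCm38.p6), where 8 of the 10 genes had an entry. Gclc and Gsr were not in it. The core was present at 5 of the 8 genes, against 14.0% of all 27025 genes in that table. The stretches that hold it are shown because they carry the letters of the element through which NRF2 is known to act, and a match is a description, not a bound site. The core is in capitals, and each sequence is written 5′ to 3′ on the strand that reads TGACNNNGC, which is the minus strand of the genome in all 5 cases.
Nfe2l2, chr2:75704886-75704912: cagcccaccTGACTCCGCcatgccccg
Gclm, chr3:122245414-122245440: cgtgagagtTGACGGTGCgcccgggag
Srxn1, chr2:152105543-152105569: gtctcactcTGACCTAGCtgcccactg
Txnrd1, chr10:82859105-82859131: gtgtcagaaTGACAAAGCaaaaatcca
Prdx1, chr4:116685457-116685483: tacgggggaTGACTCAGCgctttccct
The core lay 240 bases before the start of Nfe2l2, 134 before that of Gclm, 133 before that of Prdx1 and 92 before 1 of the 3 starts of Txnrd1. In Srxn1 it lay 28 bases after the start. Keap1, Nqo1 and Slc7a11 had no match in this window, which says only that these letters are not there.

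Expression is given as TPM, a unit that corrects reads for the length of each gene and brings every library to the same total. For 20770 genes, the 10 members among them, the reads behind each TPM could be recovered, and they numbered 15502131 to 18282107 per library. Values per library are listed in the order of replicates 1, 2 and 3, control siRNA before NCOA4 siRNA. Control replicate 1 stood apart from the other libraries. Among genes above 10 TPM, its median absolute log2 difference was 0.12 and 0.11 from the other control replicates, which differed by 0.08 from each other, while NCOA4 siRNA replicates differed by 0.05 to 0.06. Genes of the mitochondrial genome took 129222 TPM in this library and 93614 to 101701 TPM in the other 5. All 10 macrophage markers examined, among them Csf1r, Cd68 and Lyz2, were expressed, and their summed level was 8650 to 8841 TPM in control libraries, below the 8981 to 9083 TPM of NCOA4 siRNA libraries. Of these markers 5 of 10 had an adjusted p under 0.05, against 5.42% of all tested genes. Higher were Fcgr1 and Adgre1, by 1.51-fold and 1.53-fold, and, by less than 1.5-fold, Mertk and Csf1r, and lower was Cd14, at 0.831 times its control level. Cd68 also had a lower estimate, which did not pass (adjusted p = 0.178). Of 16 markers of other cell types, 10 were at 0 in every library, and the summed level of all 16 was 1.08 to 1.48 TPM in the control group and 1.54 to 1.95 TPM in the knockdown group. The part of these marker and mitochondrial values in the results for the members was not tested. In bulk RNA fewer cells of a type and less RNA per cell cannot be told apart.

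Ncoa4, the siRNA target, was at 19.7, 22.5 and 22.4 TPM in control cells and at 9.63, 8.60 and 8.88 TPM after knockdown. It fell to 41.9% of its control level, from 21.6 ± 1.57 to 9.04 ± 0.533 TPM (SD, n = 3 each, limma adjusted p = 0.00127), so the transcript was lowered and not removed.

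No tested NRF2 antioxidant response gene passed the threshold after NCOA4 knockdown. Of the 9 members with a mean of at least 0.5 TPM, 0 had an adjusted p under 0.05 (limma on log2(TPM + 0.5), Benjamini-Hochberg adjustment over 13829 genes), where 5.42% of all tested genes did. With a fold change above 1.5 also required, the members again counted 0 and all tested genes 1.18%, made up of 0.861% higher and 0.318% lower. Only Srxn1 had an unadjusted p under 0.05, against 21.6% of all tested genes. Limma-voom on recovered reads also gave 0 members, as did each of the other 15 alternatives tried. The median log2 fold change of the 9 members was -0.03 and that of all tested genes 0.03, and the median absolute log2 fold change was 0.06 and 0.12, respectively. For 8 of the 9 members the 95% interval of the log2 fold change lay wholly within a 1.5-fold change in either direction. Among all tested genes this share was 72.4%. These comparisons were not matched for level. In control cells every tested member but Gclm and Slc7a11 was above at least 74.4% of tested genes.

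The levels of the 10 transcripts per length spread widely and kept their order. In control cells Prdx1 was highest, at 989 ± 136 TPM, above 99.1% of tested genes, followed by Nfe2l2, Gsr, Txnrd1, Gclc, Srxn1, Keap1, Gclm, Slc7a11 and Nqo1. The order was identical in NCOA4 siRNA cells. In both groups, Txnrd1 and Gclc were the only neighbours in this order whose 3 libraries overlapped. The summed TPM of the 10 genes was 1432, 1669 and 1673 in control libraries and 1732, 1691 and 1688 after knockdown, and control replicate 1 lay below the rest. Without Prdx1 the sums were 601, 601 and 607 TPM and 603, 591 and 581 TPM, and the groups overlapped.

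**Figure D1:**
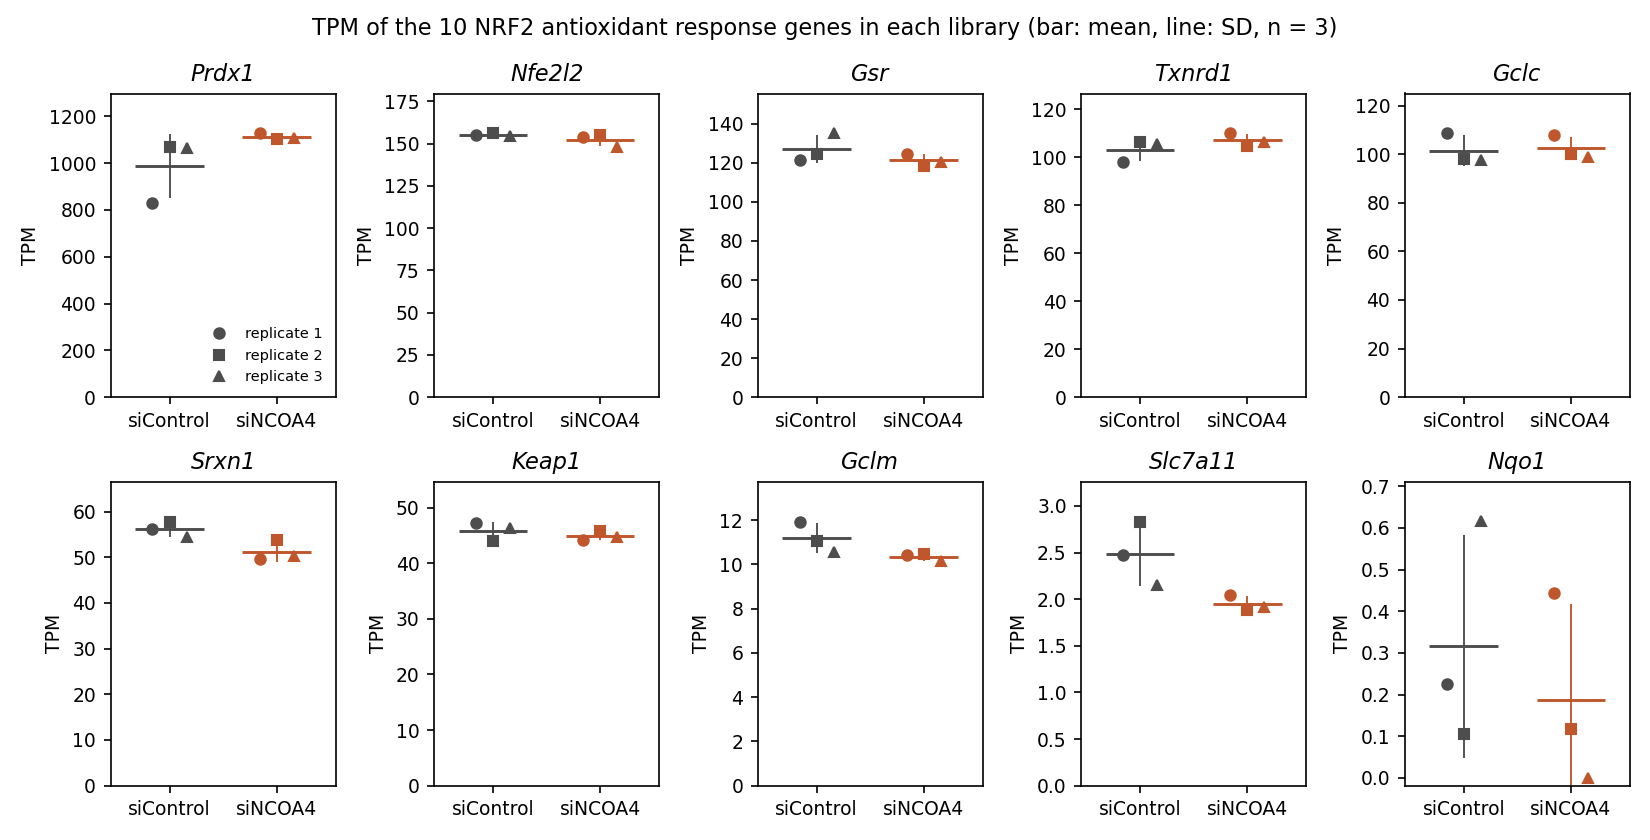
TPM of each of the 10 genes (vertical axis, a separate scale per gene) in control siRNA and NCOA4 siRNA libraries (horizontal axis), with 1 symbol per replicate, a horizontal bar for the mean and a vertical line for the SD. The groups overlap for Nfe2l2, Keap1, Nqo1, Gclc, Txnrd1 and Gsr and lie apart for the other 4 genes, control replicate 1 is the low point of Prdx1 at 831 TPM, and Nqo1 stays under 0.62 TPM.

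Both regulators had overlapping groups and narrow intervals. Nfe2l2 (ENSMUSG00000015839, chr2:75675513-75704641, minus strand, GRCm38) was at 155, 156 and 154 TPM in control libraries and at 154, 155 and 148 TPM after knockdown, from 3057 to 3594 reads per library. The groups overlapped, with NCOA4 siRNA replicate 3 the lowest. Its log2 fold change was -0.03, with a 95% interval of -0.11 to 0.06 and an adjusted p of 0.688. Keap1 (ENSMUSG00000003308, chr9:21229730-21239361, minus strand), the adaptor that presents NRF2 for degradation, was at 47.2, 43.9 and 46.3 TPM with control siRNA and at 44.2, 45.8 and 44.7 TPM with NCOA4 siRNA. These groups also overlapped, and the log2 fold change was -0.03 (95% interval -0.13 to 0.08, adjusted p = 0.762), and -0.00638 without control replicate 1. An antisense gene, Gm16754, overlaps Keap1, holds 10.4% of the 50-base stretches of its longest coding transcript and was itself at 6.99 to 10.7 TPM, so without a stated strand setting their reads cannot be fully told apart. Within each library, the Nfe2l2 transcript stood at 3.29, 3.55 and 3.34 times Keap1 in control cells and at 3.48, 3.39 and 3.31 times Keap1 after knockdown. This ratio, which does not depend on scaling between libraries, had an exact two-sided permutation p of 1 (n = 3 each).

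Glutathione is a tripeptide whose synthesis starts with glutamate-cysteine ligase, made of the catalytic subunit GCLC and the modifier subunit GCLM. Gclc (ENSMUSG00000032350, chr9:77754535-77794485, plus strand) was at 109, 98.0 and 97.7 TPM with control siRNA and at 108, 100 and 99.0 TPM with NCOA4 siRNA, with replicate 1 of each group above the others. The groups overlapped and the log2 fold change was 0.01 (95% interval -0.13 to 0.15, adjusted p = 0.917), and 0.06 without control replicate 1 (adjusted p = 0.492). Gclm (ENSMUSG00000028124, chr3:122245557-122270732, plus strand) was far lower, at 11.9, 11.1 and 10.6 TPM with control siRNA and 10.4, 10.5 and 10.1 TPM with NCOA4 siRNA. All 3 NCOA4 siRNA libraries lay below all 3 controls, and the log2 fold change of -0.11 did not pass (95% interval -0.27 to 0.05, adjusted p = 0.407). Without control replicate 1 it was -0.06 (adjusted p = 0.645). The pseudogene Gm6061, at 4.72 to 11.2 TPM, overlaps the span of Gclm on the same strand. Of the 50-base stretches of the longest coding transcript of Gclm, 0.776% also occur in transcripts of other genes. An effect of Gm6061 on the reads of Gclm was not tested. Per Gclc transcript, Gclm stood at 0.110, 0.113 and 0.108 with control siRNA and at 0.0963, 0.105 and 0.102 with NCOA4 siRNA. The ratio was lower in 3 of 3 NCOA4 siRNA libraries, with a log2 difference of -0.13 and an exact two-sided permutation p of 0.1, which is the smallest that 3 against 3 allow, or 0.167 after Benjamini-Hochberg adjustment over the 5 ratios computed.

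Cystine for glutathione enters through xCT, encoded by Slc7a11, which pairs at the membrane with the heavy chain encoded by Slc3a2. Slc7a11 (ENSMUSG00000027737, chr3:49892526-50443614, minus strand) was the lowest of the 9 tested members, above 19.0% of tested genes in control cells. It was at 2.48, 2.83 and 2.15 TPM in control libraries, from 198, 239 and 156 reads, and at 2.04, 1.89 and 1.92 TPM after knockdown, from 165, 143 and 161 reads. Every NCOA4 siRNA library was below every control library, and the controls were spread more widely than the knockdown libraries. Its log2 fold change of -0.28 was the largest in size among the members and missed the threshold (standard error 0.143, adjusted p = 0.314). The 95% interval, from -0.62 to 0.06, reached past a 1.5-fold decrease. With limma-voom on recovered reads the estimate was -0.37 with an adjusted p of 0.0554, and adjusted p-values over all alternatives were 0.0554 to 0.499. Slc3a2 was at 304 ± 5.58 and 298 ± 3.04 TPM (SD, n = 3 each), and Slc7a11 was at most 0.00948 times that level in any library. The log2 ratio of Slc7a11 to Slc3a2 was -6.94 ± 0.212 in control libraries and -7.26 ± 0.0472 after knockdown, lower in 3 of 3 libraries (exact two-sided permutation p = 0.1, 0.167 after adjustment over 5 ratios). Gsr (ENSMUSG00000031584, chr8:33652523-33698163, plus strand), the reductase that returns oxidized glutathione to its reduced form, was at 121, 124 and 135 TPM with control siRNA and 125, 119 and 121 TPM with NCOA4 siRNA. The groups overlapped, and the log2 fold change was -0.06 (95% interval -0.19 to 0.06, adjusted p = 0.515), and -0.10 without control replicate 1 (adjusted p = 0.294).

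The thioredoxin branch held the member with the smallest unadjusted p and the most abundant member. Srxn1 (ENSMUSG00000032802, chr2:152105516-152111376, plus strand) encodes sulfiredoxin, which repairs overoxidized peroxiredoxins. Its level was 56.1, 57.8 and 54.4 TPM in control cells and 49.7, 53.7 and 50.3 TPM after knockdown, from 800 to 988 reads per library. NCOA4 siRNA libraries were all below the controls and averaged 91.3% of control. The log2 fold change was -0.13 with a 95% interval of -0.24 to -0.02, an unadjusted p of 0.0303 and an adjusted p of 0.181, and adjusted p-values over all alternatives were 0.0767 to 0.414. Txnrd1 (ENSMUSG00000020250, chr10:82833951-82897712, plus strand), the selenoprotein that reduces thioredoxin, was at 97.8, 106 and 105 TPM with control siRNA and at 110, 105 and 106 TPM with NCOA4 siRNA. These groups overlapped, with control replicate 1 lowest, and the log2 fold change was 0.05 (95% interval -0.06 to 0.16, adjusted p = 0.560). Without that library it was 0.02 (adjusted p = 0.849). The log2 ratio of Txnrd1 to Txn1, the transcript of thioredoxin itself, was -3.73 ± 0.124 and -3.64 ± 0.0768, with overlapping groups (exact two-sided permutation p = 0.3).

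Prdx1 (ENSMUSG00000028691, chr4:116685544-116700822, plus strand) encodes peroxiredoxin 1, a peroxidase that thioredoxin recharges. Its level was 831, 1069 and 1066 TPM in control cells and 1128, 1101 and 1108 TPM after knockdown, from 14527 to 20340 reads per library. The 3 NCOA4 siRNA libraries lay above the 3 controls, of which replicate 1 was well below the others. The log2 fold change was 0.18 (95% interval -0.05 to 0.41, adjusted p = 0.345). Without control replicate 1 it was 0.06 with an adjusted p of 0.229, and with mitochondrial genes removed from all libraries it was 0.16 with an adjusted p of 0.316. Of the 50-base stretches of its longest coding transcript, 10.9% also occur in transcripts of 3 other genes, so part of its reads could have been assigned elsewhere or discarded. The log2 ratio of Srxn1 to Prdx1 was -4.13 ± 0.213 in control libraries and -4.44 ± 0.0754 after knockdown, lower in 3 of 3 libraries (exact two-sided permutation p = 0.1, 0.167 after adjustment over 5 ratios). Its log2 difference of -0.31 was -0.19 without control replicate 1.

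**Figure D2:**
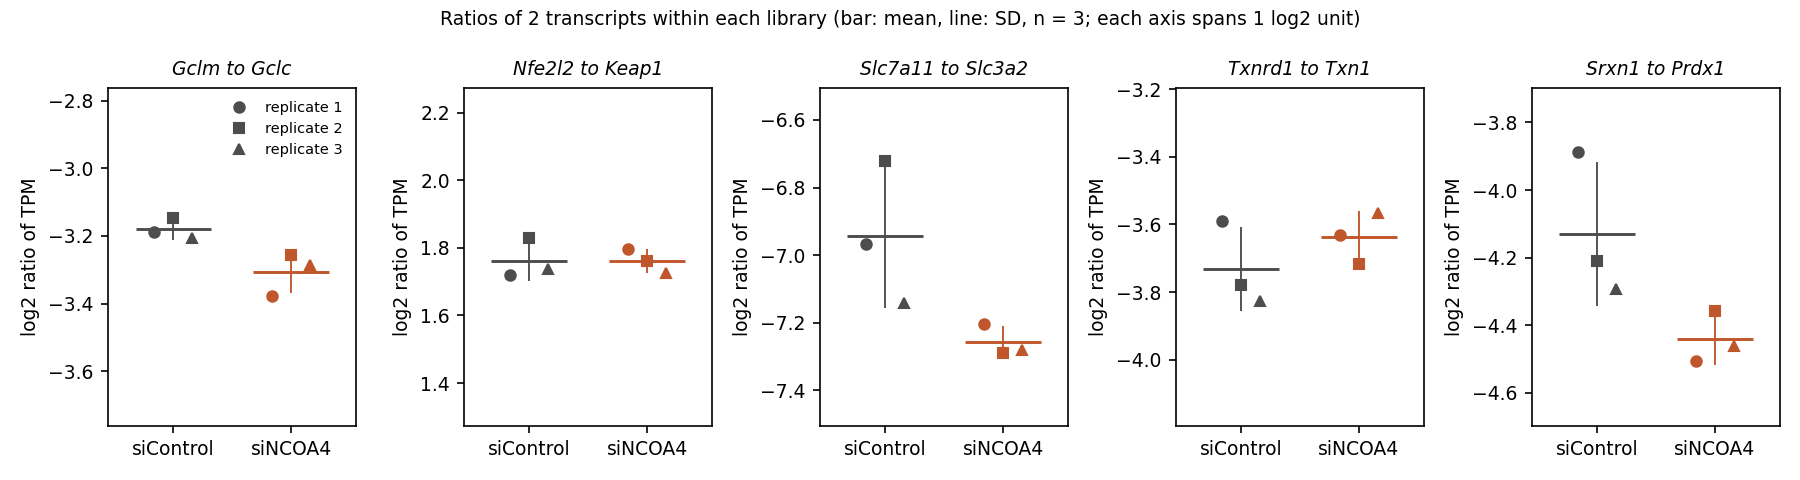
Log2 ratio of the TPM of 2 transcripts in the same library (vertical axis, 1 log2 unit in each panel) for control siRNA and NCOA4 siRNA (horizontal axis), with 1 symbol per replicate, the mean and the SD. Gclm to Gclc, Slc7a11 to Slc3a2 and Srxn1 to Prdx1 are lower in 3 of 3 NCOA4 siRNA libraries, and the other 2 ratios overlap.

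Nqo1 (ENSMUSG00000003849, chr8:107388225-107403206, minus strand) encodes the quinone reductase that is often read out as a marker of NRF2 activity. It was near the limit of detection in these cells, with 2, 1 and 5 reads in control libraries and 4, 1 and 0 reads after knockdown, where a count of 0 allows up to 3 reads. Its TPM was 0.224, 0.106 and 0.618 and then 0.443, 0.118 and 0, under the limit for testing. The groups overlapped, no fold change is given, and a difference was not detectable at this depth.

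Across the members, 1 of 9 tested genes had all NCOA4 siRNA libraries above the controls (Prdx1) and 3 had all of them below (Gclm, Slc7a11 and Srxn1). Among all tested genes these shares were 16.6% and 11.8%. The estimate for Gclc, close to 0, changed sign under 6 alternatives and that for Txnrd1 under 1, median centring.

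**Figure D3:**
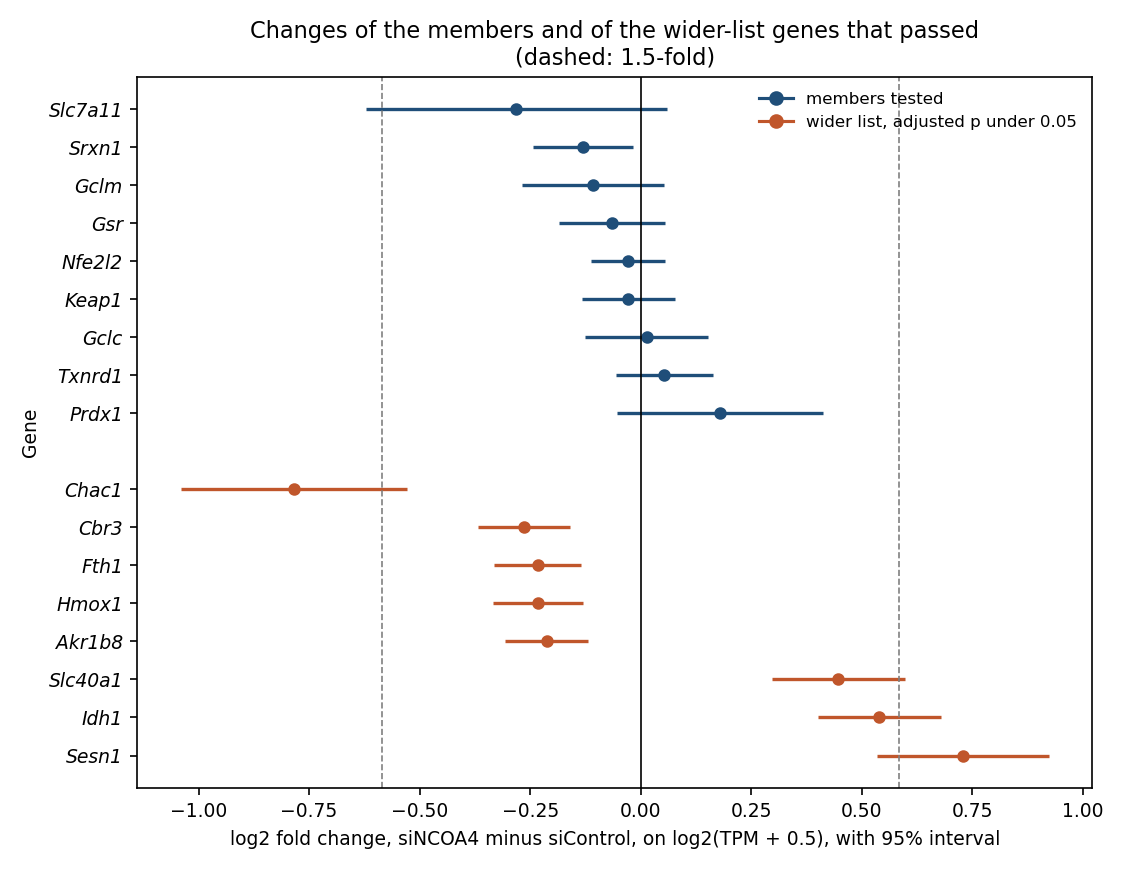
Log2 fold change with NCOA4 siRNA on log2(TPM + 0.5) (horizontal axis, dots) with its 95% interval (lines) for the 9 tested members in blue and the 8 genes of the wider list with an adjusted p under 0.05 in orange, and dashed lines at 1.5-fold. Among the members only the interval of Slc7a11, from -0.62 to 0.06, crosses a dashed line, and that of Srxn1 leaves out 0.

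To set the members beside their pathways, another 91 genes of the NRF2, glutathione, thioredoxin and NADPH pathways and of heme, iron, quinone and carbonyl handling were examined. Of these, 14 were at 0 in every library and 72 had a mean TPM of at least 0.5. In this list 8 genes had an adjusted p under 0.05, which is 11.1% of those tested against 5.42% of all tested genes, 3 of them higher and 5 lower, against 3.11% and 2.31% of all tested genes. Its median log2 fold change was -0.01. The list was chosen with earlier results of these data known, so its shares cannot be read as a result about these pathways.

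Sesn1, encoding the stress-induced protein sestrin 1, was at 22.8, 27.6 and 27.9 TPM with control siRNA and at 44.0, 43.5 and 42.7 TPM with NCOA4 siRNA. It rose by 0.73 on the log2 scale (adjusted p = 0.00681), and its adjusted p was 0.0510 without NCOA4 siRNA replicate 2. Idh1, the cytosolic isocitrate dehydrogenase that makes NADPH, rose from 180 ± 13.0 to 261 ± 8.58 TPM (adjusted p = 0.00597), and it passed under every alternative. Slc40a1, encoding the iron exporter ferroportin, rose from 13.5 ± 0.859 to 18.5 ± 0.264 TPM (adjusted p = 0.0133). It did not pass when any 1 NCOA4 siRNA replicate was left out (adjusted p from 0.0665 to 0.0797). With replicate numbers entered as a block it did not pass either (adjusted p = 0.0654). Chac1, encoding an enzyme that breaks down glutathione, was at 11.8, 9.98 and 11.5 TPM and then 6.94, 5.49 and 6.28 TPM, and fell by 0.78 on the log2 scale (adjusted p = 0.0124, and 0.0560 or 0.0618 without NCOA4 siRNA replicate 2 or 3). Only Sesn1 and Chac1, 2 of the 8, changed by more than 1.5-fold.

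The other 4 lower genes changed by less. Hmox1, the heme oxygenase that frees iron from heme, was at 637, 665 and 685 TPM with control siRNA and 579, 558 and 554 TPM with NCOA4 siRNA, and averaged 85.1% of control (log2 fold change -0.23, adjusted p = 0.0291). Fth1, the ferritin heavy chain, fell from 3053 ± 56.9 to 2597 ± 6.77 TPM, Cbr3, a carbonyl reductase, from 44.1 ± 0.730 to 36.6 ± 1.17 TPM and Akr1b8, an aldo-keto reductase, from 230 ± 6.14 to 198 ± 5.65 TPM (adjusted p = 0.0257, 0.0224 and 0.0312, SD, n = 3 each). For all 4 genes the NCOA4 siRNA libraries lay below the controls, as for 11.8% of all tested genes. The 4 were picked by adjusted p from the same values, so this adds no support. All 4 passed without control replicate 1, and none of the 4 passed when any other library was left out. Their estimates with 1 library left out were -0.26 to -0.21 for Hmox1, -0.25 to -0.22 for Fth1, -0.28 to -0.24 for Cbr3 and -0.24 to -0.19 for Akr1b8. Over all tested genes the number passing also fell without each of those other libraries, from 750 to between 127 and 495. With replicate numbers entered as a block none of the 4 passed (adjusted p from 0.102 to 0.118). The same held with eBayes without trend (adjusted p from 0.0547 to 0.0883). With no filter on low TPM, Fth1 and Hmox1 did not pass (adjusted p = 0.181 and 0.0590). The number of lower genes in the list was 5 with all libraries, 8 without control replicate 1, 1 without control replicate 2, control replicate 3 or NCOA4 siRNA replicate 1, and 0 without NCOA4 siRNA replicate 2 or 3. None of the 6 passing genes with an entry in the promoter table held TGACNNNGC in the window searched, against 14.0% of all genes there. At that share, 0 of 6 cannot be read as a result about these genes. Letters outside the window were not searched, and Hmox1 and Slc40a1 had no entry.

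**Figure D4:**
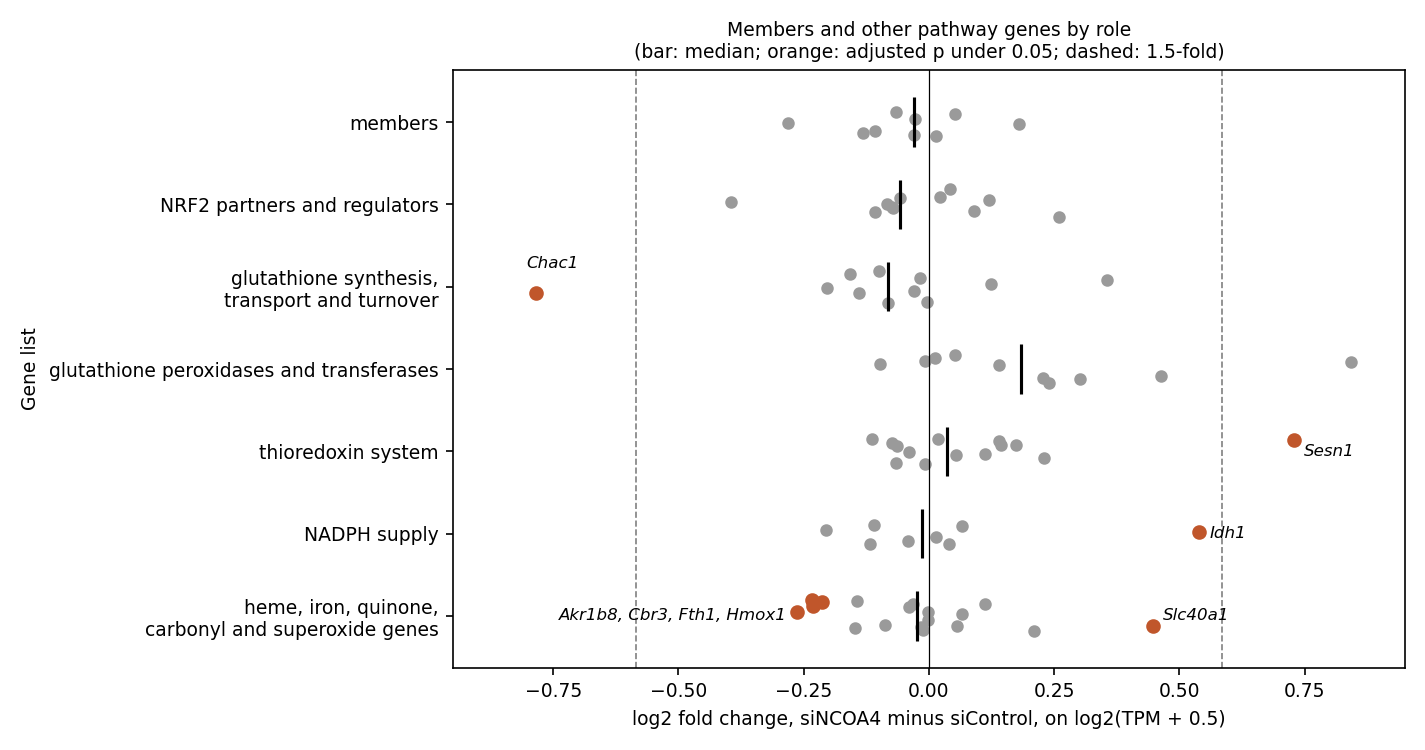
Log2 fold change with NCOA4 siRNA on log2(TPM + 0.5) (horizontal axis) of each tested gene, grouped by list (vertical axis), with a bar at the median of each list, orange dots and names for genes with an adjusted p under 0.05, and dashed lines at 1.5-fold. The members sit between -0.28 and 0.18 with no orange dot, and 5 of the 8 orange dots belong to the heme, iron, quinone, carbonyl and superoxide genes.

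Among NRF2 partners and regulators, 11 of 13 genes were tested and 0 passed in the limma fit, although 3 had an unadjusted p under 0.05. Maff, a small MAF partner of NRF2, and Bach1, a repressor that competes with NRF2 for the same elements, had the widest differences of these and were singled out after their values were seen. Maff was at 11.8, 14.8 and 13.8 TPM with control siRNA and 10.3, 10.1 and 9.90 TPM with NCOA4 siRNA (log2 fold change -0.39, adjusted p = 0.0565). Bach1 was at 18.6, 21.1 and 20.8 TPM and then 25.7, 23.0 and 23.9 TPM (log2 fold change 0.26, adjusted p = 0.0881). In both genes the groups did not overlap, as for 28.4% of all tested genes, and neither passed. The other small MAF genes of the list, Mafg and Mafk, had overlapping groups, with log2 fold changes of 0.02 and 0.04. Glutathione peroxidases and transferases had 10 of 21 genes tested, 8 with a higher and 2 with a lower estimate and a median of 0.18, and 0 passed the adjusted threshold, with 4 at an unadjusted p under 0.05. Heme, iron, quinone, carbonyl and superoxide genes had 18 of 21 tested, 5 with a higher and 13 with a lower estimate, a median of -0.02 and 5 genes that passed, 1 higher and 4 lower. Thioredoxin system genes had 14 of 14 tested, with a median of 0.04, and Sesn1 was the gene that passed. NADPH supply genes had 8 of 8 tested, with a median of -0.01, and Idh1 was the gene that passed. Genes of glutathione synthesis, transport and turnover had 11 of 14 tested, 9 with a lower estimate, a median of -0.08 and Chac1 as the gene that passed. Of all 13829 tested genes, 7933 had a higher and 5896 a lower estimate, with a median of 0.03. An unadjusted p under 0.05 was found for 21.6% of them, and 5.42% passed the adjusted threshold. The lists are small and were chosen with earlier results known, so their counts cannot be read as results about these roles.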

How the data were processed

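Total RNA of J774 cells, 3 replicates with control siRNA and 3 with NCOA4 siRNA, was sequenced by the authors from stranded poly(A) libraries. The authors deposited TPM per Ensembl gene and library, a unit corrected for gene length and library total. The submitters' processing notes name Trimmomatic 0.33, FastQC, HISAT2 2.1.0, featureCounts, edgeR and mm10; annotation, strand and multi-mapping settings are not given in the sources used here. Symbols and positions came from GENCODE M21 (GRCm38), which held 55227 of 55487 identifiers.

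Genes whose TPM averaged 0.5 or more were tested with limma 3.58.1 (R 4.3.3) on log2(TPM + 0.5), lmFit and eBayes with trend, siNCOA4 minus siControl over all 6 libraries, with Benjamini-Hochberg adjustment over 13829 genes. The fold changes are on this scale and understate those of low genes. An adjusted p under 0.05 was counted, with and without a fold change above 1.5. Because the deposited unit is TPM, a count test was not the main test. Intervals are 95% intervals of the fit. Ratios within libraries were tested with an exact two-sided permutation test over the 20 arrangements. Its p is the share of arrangements with a difference at least as large, and cannot go under 0.1. The limma p sets the group difference against the variance between replicates, moderated over all tested genes. Neither covers variation beyond these libraries.

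Reads were rebuilt as TPM times the union exon length divided by the value of 1 read. Of 21055 genes above 0 with a length, 98.6% were within 0.02 of whole reads in all 6 libraries and were used. They gave the depth and the limma-voom alternative, with library sizes scaled by trimmed means of M-values, computed by an own implementation. Shared 50-base stretches and promoter letters were searched with Python 3.11.15. Functions were tested on simulated data.

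The genes, lists, ratios and thresholds were chosen with earlier results of these data known. Named are all members, Ncoa4, the genes of the ratios and the genes of the wider list with an adjusted p under 0.05. Maff, Mafg, Mafk, Bach1 and the macrophage markers given with values were named outside this rule, after their values were seen. As alternatives, the pseudocount was set to 1 or 0.1, the filter was dropped or raised to 5 TPM, values were median centred or quantile normalized, mitochondrial genes were removed, eBayes was run without trend, limma-voom was used, replicate numbers entered as a block, and single libraries were left out.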

Additional observations from a re-analysis of the deposited data

How the results depend on the processing

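Under all 16 alternatives, 0 members had an adjusted p under 0.05. The within-library ratios were computed under 8 of them (recovered reads, the replicate block and each library left out). They moved by less than the larger of the SDs of their 2 groups, which was fixed in advance. Recovered reads and the block return the same differences by construction. Leaving out 1 of 3 libraries cannot move a group mean by its SD, so this is no check of the ratios. The smallest adjusted p of a member was 0.0554, for Slc7a11 with limma-voom, which was not tested in the fit with a mean TPM of at least 5. The log2 fold change of Gclc, 0.01, was -0.0444 with median centring, -0.00102 without mitochondrial genes and -0.00798 with limma-voom. It was -0.0255 to 0.0639 with single libraries left out, and below 0 without control replicate 2, control replicate 3 or NCOA4 siRNA replicate 1. That of Txnrd1 was -0.00513 with median centring. In the wider list, lower genes numbered 3 without the filter, 8 with median centring, 1 without trend, 8 with limma-voom and 1 with the replicate block, and 0 to 8 with single libraries left out. Higher genes numbered 5 with quantile normalization and 5 with limma-voom, and 1 to 4 with single libraries left out, and genes past both thresholds 0 to 3. The cause was not tested. Deviations of same-numbered libraries had correlations of 0.03, -0.02 and 0.02, and all pairs of a control and an NCOA4 siRNA library lay between -0.04 and 0.03. Control replicates 1 and 3 correlated best with the same number, and control replicate 2 with NCOA4 siRNA replicate 3. Values this small cannot tell whether the numbers pair the libraries. With the replicate block, 161 genes in all had an adjusted p under 0.05 in place of 750, and 2 of the wider list were higher. The ratio differences with the block are the same by construction, at -0.13, -0.000675, -0.31, 0.09 and -0.31. Leaving out 1 library gave ratio differences of -0.15 to -0.09 for Gclm to Gclc, -0.02 to 0.03 for Nfe2l2 to Keap1, -0.41 to -0.20 for Slc7a11 to Slc3a2, 0.05 to 0.16 for Txnrd1 to Txn1 and -0.39 to -0.19 for Srxn1 to Prdx1. Over all tested genes, those with an adjusted p under 0.05 numbered 1396 with limma-voom and 127 to 807 with 1 library left out. Nqo1, at 0 to 5 reads, was tested only in the fit without the filter.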
